A study of Mus musculus with 18 samples.

Results

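The 10 genes described here belong to the insulin and insulin-like growth factor (IGF) signal system of the kidney. They are the ligand *Igf1*, the receptors *Igf1r* and *Insr*, the receptor substrates *Irs1* and *Irs2*, and the binding proteins *Igfbp1*, *Igfbp3*, *Igfbp4*, *Igfbp5*, and *Igfbp7*. They were chosen by name, and all 10 were found among the 78239 genes listed for each mouse. RNA came from a piece of the left kidney of 18 outbred CD-1 mice aged 6 wk, labelled WT, with 1 library per mouse. Dams of the low protein (LP) groups ate a diet with 8% protein through gestation and lactation and dams of the normal protein (NP) groups a diet with 18% protein, and all offspring ate the 18% diet after weaning. The males numbered 5 LP and 5 NP mice, and the females 5 LP and 3 NP mice. Every mouse had been injected with cationic ferritin, an MRI label for glomeruli. Kidneys were taken 90 min (males) or 24 h (females) after the final injection, so sex and time after injection cannot be told apart. The labels do not tie mice to litters, so p-values measure the spread between these mice only.

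IGF1 and insulin bind related tyrosine kinase receptors, which phosphorylate the IRS docking proteins and so switch on PI3 kinase and AKT. AKT keeps FOXO transcription factors out of the nucleus, and FOXO factors raise genes of the fasted state, *Igfbp1* and *Irs2* among them. IGF-binding proteins hold IGFs in blood and tissue and decide how much of them reaches the receptor. In the kidney, this system takes part in growth, filtration, and tubular transport.

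The depth ran from 14050486 to 23562411 reads on genes, and no library held fewer than 11 counts of any of the 10 genes. Levels are in CPM, counts scaled to the size of the library and corrected with TMM factors. On clustering of the libraries, LP female 1, LP female 2, and NP female 3 separated from the other 15. In these 3 libraries, *Fkbp5*, a glucocorticoid receptor target, was between 21.4 and 44.5 CPM, against 248 to 493.08 CPM in the other 5 females. The summed level of 10 interferon-stimulated genes was 155 to 204 CPM there, against 888 to 3139 CPM in the other females. Kidney markers were present in all libraries, with 6 proximal tubule markers summing to between 6250 and 13549 CPM.

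Per kilobase of exon, *Igfbp4*, *Igfbp7*, *Igfbp5*, and *Igfbp3* had the highest mean levels of the 10 genes and *Igf1* the lowest. Over 18 libraries, *Igfbp4* was at 266 ± 32.1 RPKM (CPM per kilobase of exon; SD) and *Igfbp7* at 208 ± 50.0 RPKM. Next came *Igfbp5* at 41.2 ± 17.4 RPKM and *Igfbp3* at 34.5 ± 12.01 RPKM. *Igfbp1* was at 14.7 ± 17.01 RPKM, *Igf1r* at 11.2 ± 3.37 RPKM, and *Insr* at 8.63 ± 2.14 RPKM. *Irs2* was at 7.47 ± 3.88 RPKM, *Irs1* at 2.08 ± 0.662 RPKM, and *Igf1* at 0.650 ± 0.624 RPKM. *Igfbp7* was above *Igfbp5* and *Irs2* above *Irs1* in 18 of 18 libraries. Other neighbours were not separated by their spread: *Igfbp5* was above *Igfbp3* in 10 libraries, *Igfbp1* above *Igf1r* in 9, and *Insr* above *Irs2* in 12. *Igfbp4* was above *Igfbp7* in 14. The place of *Igfbp1* depended on the group: its mean was 30.7 RPKM in LP females but 2.39 RPKM in NP males, where *Igf1r* was at 12.1, *Insr* at 8.02, and *Irs2* at 5.89 RPKM.

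**Figure D1:**
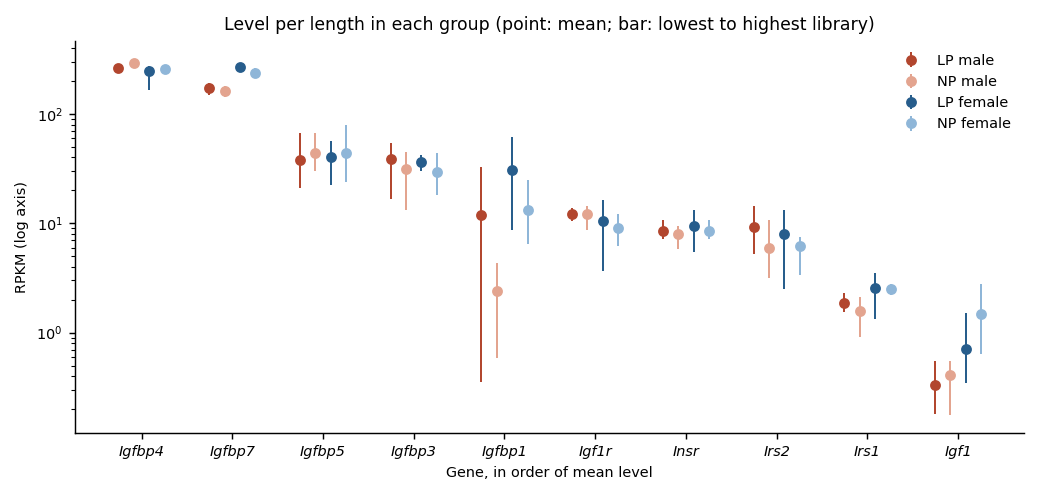
Level per exon length of each gene (RPKM, log axis) by diet and sex, with points for group means and bars from the lowest to the highest library. The points of *Igfbp4* and *Igfbp7* lie above all other genes, and the widest bar is that of *Igfbp1* in LP males.

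The genes also differed in how much they varied between mice of the same group. The pooled within-group SD of log2(CPM + 1) was 1.32 for *Igfbp1*, 0.83 for *Irs2*, and 0.67 for *Igf1*. These lay above 99.6%, 98.2%, and 96.7% of the 12665 genes that reached 10 counts throughout. At the other end, *Igfbp4* had an SD of 0.18 and *Igfbp7* of 0.13, which placed *Igfbp7* above only 6.77% of genes. The group comparisons below are read against these spreads.

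**Figure D2:**
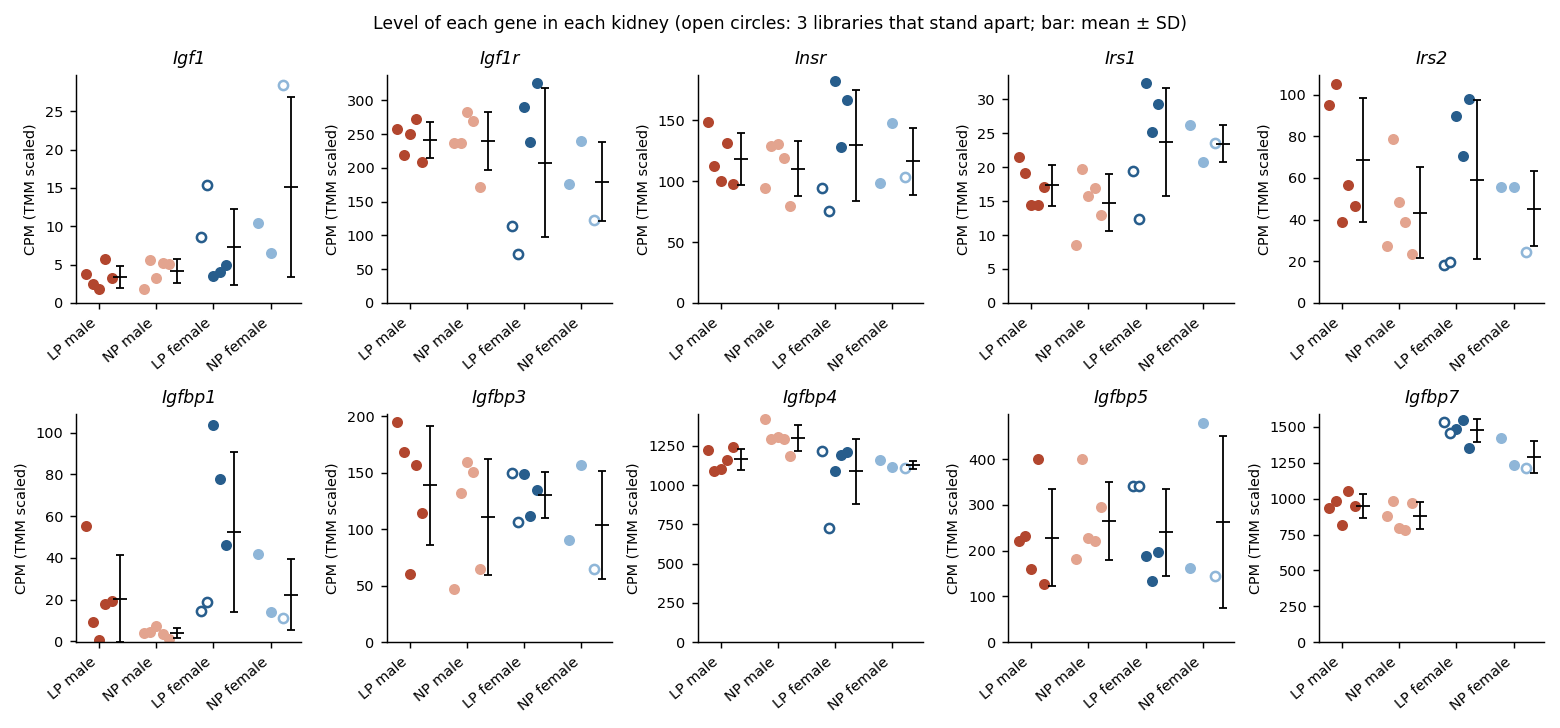
CPM of each gene in each mouse by group, with the mean ± SD beside the points and open circles for LP female 1, LP female 2, and NP female 3. *Igfbp7* does not overlap between males (782 to 1051 CPM) and females (1211 to 1547 CPM), whereas males and females overlap in the other panels.

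Whether maternal diet left a difference in these genes was tested within each sex. In males, 0 of the 10 genes had an adjusted p under 0.05 by edgeR's quasi-likelihood test, where 0.0379% of 13181 genes tested did. In females, 0 of 10 passed, where 0% of 13510 genes did. At an unadjusted p under 0.05, 1 gene (*Igfbp1*) passed in males and 0 in females, against 506 and 564 of all genes. DESeq2 and limma-voom also called 0 of the 10 in each sex. For no gene were LP and NP mice of a sex free of overlap, a pattern that 0.668% of all genes tested showed in males and 2.98% in females.

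**Figure D3:**
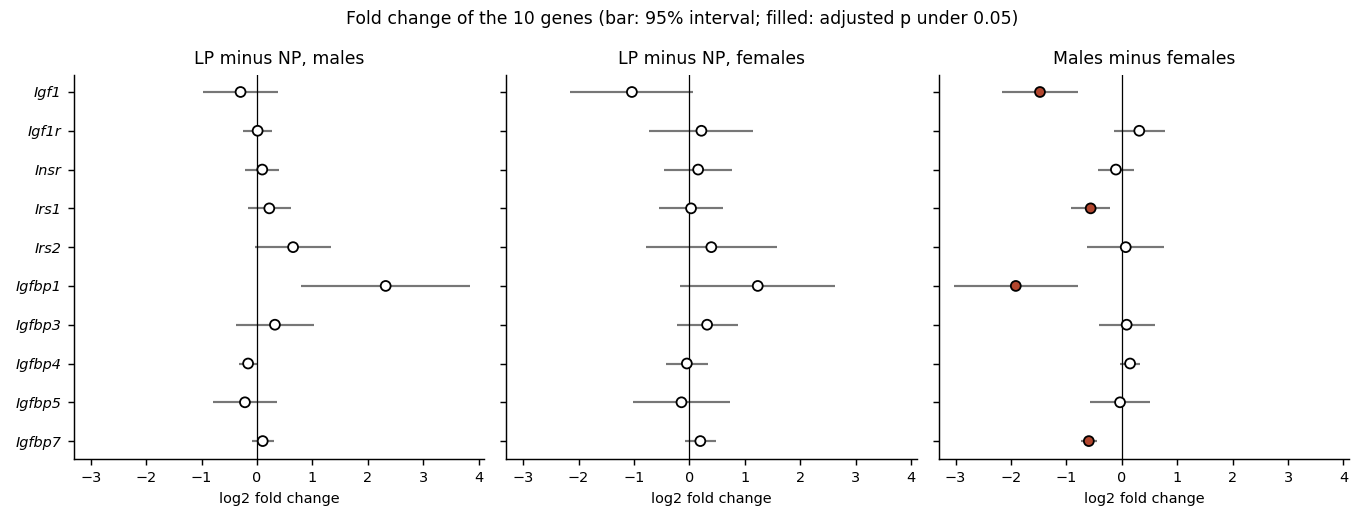
Log2 fold change of each gene for LP minus NP in males, LP minus NP in females, and males minus females, with 95% normal intervals. Filled points have an adjusted p under 0.05. The intervals are narrower than the quasi-likelihood test implies. That of *Igfbp4* for diet in males excludes 0 although the unadjusted p of that test was 0.0717. All points of both diet panels are open, and *Igf1*, *Irs1*, *Igfbp1*, and *Igfbp7* are filled and below 0 in the sex panel.

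*Igf1* (ENSMUSG00000020053, chr10:87693642-87772904, plus strand, GRCm39) encodes the growth factor through which growth hormone drives much of body growth. In LP males it was at 3.74, 2.45, 1.86, 5.67, and 3.21 CPM, and in NP males at 1.82, 5.63, 3.22, 5.15, and 5.05 CPM. In LP females it was at 8.57, 15.4, 3.52, 3.99, and 5.00 CPM, and in NP females at 10.45, 6.50, and 28.5 CPM. The highest values, 28.5 and 15.4 CPM, were those of NP female 3 and LP female 2, which stand apart. The fold change for diet was -0.30 (log2, SE 0.35, adjusted p = 0.9996) in males and -1.04 (SE 0.57, adjusted p = 0.886) in females. With 1 female left out the value in females ran from -1.48 (without LP female 2) to -0.22 (without NP female 3). NP female 3 also held the highest summed level of 7 fat cell markers, 255 CPM against 3.93 to 125 CPM in the other libraries, and 16.5% of its counts were mitochondrial, and the part of these in its *Igf1* level was not tested.

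Males had less *Igf1* than females. The mean was 3.78 ± 1.51 CPM in 10 males and 10.2 ± 8.35 CPM in 8 females, a 2.78-fold difference in the fit (log2 -1.48, SE 0.35, adjusted p = 0.00292). The exact permutation test within diets gave p = 0.00170. Of the males, 5 lay below every female. The call was lost without the 3 libraries that stand apart, where the value was -0.67 (SE 0.27, adjusted p = 0.0608). Without NP female 3 alone it was -1.07 (adjusted p = 0.0182).

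The receptors showed neither a diet nor a sex difference past the threshold. *Igf1r* (ENSMUSG00000005533, chr7:67601518-67883416, plus strand) encodes the IGF1 receptor. It was at 257, 219, 251, 273, and 209 CPM in LP males and at 237, 237, 283, 270.0, and 172 CPM in NP males. In LP females it was at 113, 72.7, 289.55, 238, and 326 CPM and in NP females at 176, 240.3, and 123 CPM. The lowest 3 of the 18 values were those of the libraries that stand apart. The difference of males minus females was 0.32 (log2, SE 0.23, adjusted p = 0.305) over all libraries and -0.030 (SE 0.12) without those 3.

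*Insr* (ENSMUSG00000005534, chr8:3172061-3329647, minus strand) encodes the insulin receptor. Its group means were 118 ± 21.6 CPM in LP males, 110.5 ± 22.7 CPM in NP males, 129 ± 45.7 CPM in LP females, and 117 ± 27.5 CPM in NP females. Those 4 groups overlapped. LP female 2 had the lowest level, 75.6 CPM, and LP female 3 the highest, 182 CPM.

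The receptor substrates *Irs1* (ENSMUSG00000055980, chr1:82210822-82269338, minus strand) and *Irs2* (ENSMUSG00000038894, chr8:11034681-11059499, minus strand) encode docking proteins that couple both receptors to PI3 kinase. Their promoters are shown because both, like that of *Igfbp1*, hold the letters CAAAACA, the core of the insulin response element of *Igfbp1*, through which FOXO factors act. The windows cover the 250 bases before the annotated start and come from the RefSeq promoter table on GRCm38.p6, in which 9 of the 10 genes matched, all but *Insr*. CAAAACA or its reverse complement TGTTTTG is in capitals.
Irs1 (chr1:82291440-82291689, minus strand): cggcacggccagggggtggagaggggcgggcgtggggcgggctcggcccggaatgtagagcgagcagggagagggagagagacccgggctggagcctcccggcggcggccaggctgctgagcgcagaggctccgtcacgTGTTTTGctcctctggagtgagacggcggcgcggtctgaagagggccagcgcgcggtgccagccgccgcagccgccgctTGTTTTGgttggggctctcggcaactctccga
Irs2 (chr8:11008930-11009179, minus strand): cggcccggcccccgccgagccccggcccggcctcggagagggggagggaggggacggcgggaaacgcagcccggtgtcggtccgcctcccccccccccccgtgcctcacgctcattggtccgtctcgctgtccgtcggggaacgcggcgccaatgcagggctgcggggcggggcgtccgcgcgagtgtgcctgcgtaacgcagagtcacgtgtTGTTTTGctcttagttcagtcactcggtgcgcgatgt

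In *Irs1* the letters begin 111 and 32 bases before the annotated start, and in *Irs2* 37 bases before it, on the reverse strand in each. CAAAACA was found on either strand in 3 of the 9 windows and in 5.56% of 32851 windows of the table. The FOXO consensus GTAAACA was in 0 of 9 and in 3.17% of all, and the glucocorticoid receptor hexamer AGAACA in 0 of 9 and in 16.1% of all. A match describes letters only, and factor binding was not measured.

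*Irs2* varied most between mice after *Igfbp1*. It was at 95.1, 105, 38.9, 56.3, and 46.6 CPM in LP males and at 27.5, 78.6, 48.5, 38.9, and 23.4 CPM in NP males. In LP females it was at 18.4, 19.6, 89.5, 70.3, and 97.9 CPM and in NP females at 55.4, 55.7, and 24.7 CPM. LP and NP males overlapped, although LP males 1 and 2 were above all NP males. The 3 female libraries that stand apart, at 18.4 to 24.7 CPM, were below the other 5 females, at 55.4 to 97.9 CPM. The diet difference was 0.65 (log2, SE 0.35, adjusted p = 0.9996) in males, with an exact permutation p of 0.151, and 0.40 (SE 0.60, adjusted p = 0.932) in females. In the other 5 females alone, LP females 3 to 5 and NP females 1 and 2, it was 0.64 (SE 0.18, adjusted p = 0.972).

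*Irs1* was lower in males. Its level ran from 14.46 to 21.5 CPM in LP males and from 8.59 to 19.7 CPM in NP males, against 12.4 to 32.5 CPM in LP females and 20.7 to 26.2 CPM in NP females. The sex difference was -0.56 (log2, SE 0.18, adjusted p = 0.0187), a 1.48-fold difference, with an exact permutation p of 0.0130. It was -0.72 (adjusted p = 0.00223) without the 3 libraries that stand apart. Within NP mice alone it was -0.66 (adjusted p = 0.0953) and within LP mice alone -0.45 (adjusted p = 0.200).

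*Igfbp1* (ENSMUSG00000020429, chr11:7147651-7152546, plus strand) encodes a binding protein that insulin represses and that fasting and glucocorticoids raise in liver and kidney. Its promoter is printed because this gene had the largest fold change of the 10 for diet. The insulin response element core begins 108 bases before the annotated start and is in capitals.
Igfbp1 (GRCm38.p6, chr11:7197537-7197786, plus strand): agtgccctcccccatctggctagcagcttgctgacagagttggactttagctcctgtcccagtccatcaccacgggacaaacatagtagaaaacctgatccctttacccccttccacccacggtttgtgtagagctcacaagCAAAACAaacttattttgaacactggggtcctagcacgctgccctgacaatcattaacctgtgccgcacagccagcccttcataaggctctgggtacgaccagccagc

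In LP males, *Igfbp1* was at 55.1, 9.26, 0.601, 17.8, and 19.4 CPM. In NP males it was at 3.98, 4.54, 7.34, 3.46, and 0.988 CPM. Of the LP males, 4 were above every NP male, and LP male 3 was below every NP male. The diet difference in males was 2.32 (log2, SE 0.78), 5.00-fold, larger in size than that of 99.977% of genes tested. It did not pass adjustment over all genes (unadjusted p = 0.0111, adjusted p = 0.9996 by edgeR), and the exact permutation p was 0.151. Without LP male 1 it was 1.54 and without LP male 3 it was 2.64, and the adjusted p was between 0.406 and 0.99997 with any 1 male left out. LP male 3, with 11 counts of *Igfbp1*, had the lowest sum among LP males of several lists. It was at 4410 CPM for 13 other FOXO targets, 1399.9 CPM for glucocorticoid receptor targets, 773 CPM for interferon-stimulated genes, 231 CPM for endothelial, and 188 CPM for podocyte markers. The other LP males were at 4650.0 to 6347, 1602 to 2023, 992 to 1121, 324 to 473, and 254 to 278 CPM in the same order. LP male 3 was not the lowest for proximal tubule (12434 CPM), thick ascending limb (3177 CPM), collecting duct and inner medulla (519 CPM), or fibroblast and mural cell markers (195 CPM). For 28 genes of the insulin relay inside the cell, its sum of 2058 CPM was the highest of the LP males. The part of these sums in its *Igfbp1* level was not tested.

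In LP females, *Igfbp1* was at 14.7, 18.97, 104, 77.7, and 45.9 CPM, and in NP females at 42.0, 14.1, and 11.1 CPM. LP females 3, 4, and 5 were above all NP females, and LP females 1 and 2 were within the NP range. The diet difference was 1.23 (log2, SE 0.71, adjusted p = 0.886), 2.35-fold. It was 1.44 (SE 0.51, adjusted p = 0.972) without the 3 libraries that stand apart, which leaves LP females 3 to 5 and NP females 1 and 2. With 1 female left out it ran from 0.83 (without LP female 3) to 2.08 (without NP female 1). The difference between the sexes in the diet effect, females minus males, was -1.11 (SE 1.13, adjusted p = 0.977), with a 95% interval from -3.33 to 1.11. With 1 library left out it ran from -1.51 (without LP female 3) to -0.28 (without NP female 1), and it was -0.33 without LP male 1. In that interaction, 0 of the 10 genes passed, also at an unadjusted p under 0.05, where 0.0158% of 12665 genes passed adjustment, and DESeq2 and limma-voom called 0 of the 10.

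By sex, *Igfbp1* was lower in males, at 12.2 ± 16.4 CPM (SD, n = 10), than in females, at 41.0 ± 34.0 CPM (SD, n = 8). The fit gave -1.91 (log2, SE 0.57, adjusted p = 0.0131), 3.76-fold, and the exact permutation test within diets p = 0.00361. The lowest female was at 11.1 CPM, and 7 of 10 males were below it. Without NP female 1 the value was -1.50 (adjusted p = 0.0600). Without the 3 libraries that stand apart it was -2.36 (adjusted p = 0.00441), and it was -2.45 (adjusted p = 0.0188) in NP mice alone and -1.36 (adjusted p = 0.270) in LP mice alone.

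**Figure D4:**
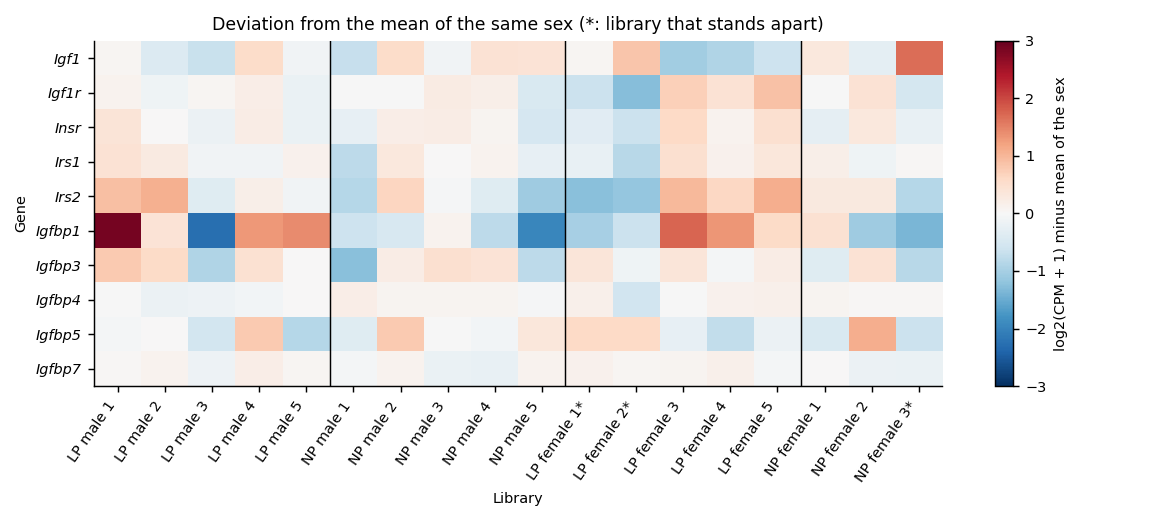
Deviation of log2(CPM + 1) from the mean of the same sex, for each gene (rows) and library (columns), with an asterisk at libraries that stand apart. Red is above and blue below the mean. *Igfbp1* spans the widest range, and *Igf1r*, *Insr*, *Irs2*, and *Igfbp1* are below the mean in all 3 marked libraries.

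*Igfbp3* (ENSMUSG00000020427, chr11:7156086-7164179, minus strand) encodes the main IGF carrier of blood and lies 3539 bases from *Igfbp1*. It was at 195, 168, 59.9, 157, and 114 CPM in LP males and at 47.2, 132, 159, 150.2, and 64.8 CPM in NP males. The 3 lowest males, LP male 3, NP male 1, and NP male 5, had summed levels of 10 endothelial markers of 231, 243, and 365 CPM, against 324 to 473 CPM in the other males. In the same order, their sums of glucocorticoid receptor targets were 1399.9, 1538, and 1266 CPM, against 1602 to 2206 CPM in the other males. In LP females *Igfbp3* ran from 107 to 149 CPM and in NP females from 64.6 to 157 CPM. The diet difference was 0.32 in males (log2, SE 0.36) and 0.32 in females (SE 0.28), and the sex difference was 0.09 (SE 0.26), which turned to -0.05 without NP female 3. In this bulk tissue, fewer cells of a type and less RNA per cell cannot be told apart. The part of endothelial cells and of glucocorticoid receptor targets was not tested.

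*Igfbp4* (ENSMUSG00000017493, chr11:98932064-98945218, plus strand) encodes a binding protein that inhibits IGF action until the protease PAPP-A cleaves it. It was at 1221, 1092, 1102, 1162, and 1242 CPM in LP males and at 1420.0, 1292, 1306, 1292, and 1189 CPM in NP males. Of the LP males, 3 were below every NP male. The diet difference in males was small, -0.16 (log2, SE 0.081, adjusted p = 0.9996), with an exact permutation p of 0.0238, the lowest of the 10 genes in males. In females *Igfbp4* was at 1221, 727, 1089, 1193, and 1209 CPM in LP mice and 1159, 1114, and 1109 CPM in NP mice. Males minus females was 0.15 (SE 0.092, adjusted p = 0.213). The exact permutation p for sex was 0.0327, and 6 males were above every female.

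*Igfbp5* (ENSMUSG00000026185, chr1:72897091-72914043, minus strand), which encodes a binding protein that also binds extracellular matrix, was between 127 and 401 CPM in LP males and between 182 and 399.7 CPM in NP males. In females it was between 134 and 341 CPM in LP mice and between 145 and 479 CPM in NP mice. Its diet differences were -0.22 (log2, SE 0.29) in males and -0.14 (SE 0.45) in females, and its sex difference was -0.03 (SE 0.28). Without NP female 2, which had the highest level, the direction turned, to 0.67 for diet in females and 0.35 for sex. The groups overlapped throughout.

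*Igfbp7* (ENSMUSG00000036256, chr5:77493130-77555931, minus strand) encodes a secreted protein of vessel walls with low affinity for IGFs, whose urinary level serves as a marker of kidney stress. It was the steadiest of the 10 genes. LP males had 937, 985, 819, 1051, and 947 CPM, and NP males 876, 986, 794, 782, and 973 CPM. LP females had 1532, 1458, 1486, 1547, and 1352 CPM, and NP females 1420.1, 1237, and 1211 CPM. All 10 males were below all 8 females, a separation that 8.4% of all genes tested showed. The sex difference was -0.59 (log2, SE 0.074, adjusted p = 8.10e-06), 1.51-fold, and the exact permutation p was 7.09e-05, the smallest the design allows. It was -0.62 (adjusted p = 3.58e-05) without the 3 libraries that stand apart, -0.54 (adjusted p = 0.0276) in NP mice, and -0.63 (adjusted p = 0.00122) in LP mice. For diet in females, 4 of 5 LP mice were above all NP mice, with a difference of 0.20 (SE 0.14, adjusted p = 0.886) and an exact permutation p of 0.0357.

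Across the 10 genes, 4 differed by sex at an adjusted p under 0.05 by edgeR, and all 4 were lower in males. Of 12665 genes, 38.7% differed, with 19.8% lower and 18.9% higher in males. The share of all genes that differed is near the share of these 10. By the exact permutation test, 5 of the 10 had an unadjusted p under 0.05, these 4 and *Igfbp4*, which was higher in males. Markers of cell types moved with sex as well. All 6 podocyte markers were lower in males, with sums of 172 to 278 CPM in males and 265 to 543 CPM in females and none at 0. The 10 endothelial markers summed to between 231 and 473 CPM in males and 254 and 582 CPM in females, with 0 of 10 past the threshold. Of the other nephron markers, 2 of 6 for proximal tubule were higher, and 3 of 4 for thick ascending limb and 3 of 6 for collecting duct and inner medulla were lower in males. Of tested markers, 0 of 7 for fibroblasts and mural cells and 0 of 4 for blood and immune cells passed. The 1 tested fat cell marker, *Fabp4*, was lower in males (log2 -1.60, adjusted p = 0.0122). Without the 3 libraries that stand apart it was -0.49 (adjusted p = 0.283). Of 9 tested interferon-stimulated genes, 0 passed. Without LP female 1, LP female 2, and NP female 3, proximal tubule had 2 markers higher and 2 lower, thick ascending limb 4 lower, collecting duct and inner medulla 2 lower, and endothelial cells 1 lower, all 6 podocyte markers were lower, and 9 of 10 interferon-stimulated genes were lower in males. These 3 female libraries had interferon-stimulated sums of 155 to 204 CPM, against 888 to 3139 CPM in the other females. Leaving them out raises the female level of that list. The part of cell type markers and interferon-stimulated genes in the sex differences was not tested.

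Other members of the system were read from a list of 15 ligands, receptors, binding proteins, and related genes. Of these, 6 reached 10 counts throughout. *Ins1* was at 0 in all libraries, and *Igf2* was between 0 and 2.60 CPM. By sex, 2 genes were higher and 2 lower in males, and without the 3 libraries that stand apart 2 and 3. *Igf2r*, which clears IGF2 from the cell surface, was at 203 ± 33.3 CPM in males and 67.1 ± 27.4 CPM in females (log2 1.62, SE 0.23, adjusted p = 2.95e-05). *Igfals*, the acid-labile subunit that joins IGFBP3 in blood, was at 18.3 ± 3.52 CPM in males and 54.2 ± 17.9 CPM in females (log2 -1.57, SE 0.19, adjusted p = 4.91e-06). *Insrr*, a relative of the insulin receptor that senses alkaline pH, was lower in males (log2 -0.71, SE 0.14, adjusted p = 0.000716). *Ghr*, the growth hormone receptor, was higher in males (log2 0.55, SE 0.15, adjusted p = 0.00877).

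Inside the cell, all 28 listed genes of the relay from the receptors to FOXO and mTOR were tested. By sex, 5 were higher and 2 lower in males, with a median of 0.06 (log2) against -0.05 over all genes. Without the 3 libraries that stand apart, 6 were higher and 7 lower. The sums of this list in those 3 were 1439 to 1560 CPM, against 1671 to 2181 CPM in the other females. Leaving them out raises the female level. *Mtor*, the growth kinase of the pathway, was at 362 ± 67.3 CPM in males and 159 ± 30.7 CPM in females (log2 1.21, SE 0.14, adjusted p = 2.84e-06). *Rptor*, its partner in complex 1, was also higher in males (log2 0.38, SE 0.094, adjusted p = 0.00403). *Grb14*, an adaptor that inhibits the insulin receptor, was lower in males, at 12.7 ± 1.13 CPM against 24.1 ± 5.79 CPM (log2 -0.94, SE 0.12, adjusted p = 1.14e-05). *Foxo4* was lower in males (log2 -0.40, SE 0.083, adjusted p = 0.000982).

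FOXO target genes other than the members were mostly lower in males. Of 13, 8 were lower and 0 higher in males, with a median of -0.72 (log2). Over all 12665 genes tested, 19.8% were lower and 18.9% higher, with a median of -0.05. Without the 3 libraries that stand apart, 9 of the 13 were lower and 0 higher, where 19.5% of 12949 genes were lower. Among the members, *Igfbp1* was lower in males, whereas *Irs2*, also raised by FOXO factors, showed no sex difference past the threshold. *Irs2* was at 0.07 (log2, SE 0.35, adjusted p = 0.892), and at -0.36 (adjusted p = 0.308) without those 3 libraries. The 8 lower genes of the main fit included *Cited2*, a transcriptional cofactor (log2 -0.78, adjusted p = 7.26e-06), and *Pck1*, the entry enzyme of gluconeogenesis (log2 -0.78, adjusted p = 0.00275). *Txnip*, which limits glucose uptake, was at -1.004 (adjusted p = 0.00305) and *Sesn1*, a stress-induced inhibitor of mTOR complex 1, at -0.72 (adjusted p = 0.00473). Of 10 tested glucocorticoid receptor targets, 4 were lower and 0 higher in males: *Sgk1*, which stimulates sodium transport (log2 -1.83, adjusted p = 5.81e-05), the clock gene *Per1* (-0.81, adjusted p = 0.0110), the metal-binding *Mt1* (-0.77, adjusted p = 0.0250), and the sulfotransferase *Sult1a1* (-0.72, adjusted p = 0.0292). Without the 3 libraries that stand apart, 8 of 11 were lower. All 3 are female. Their FOXO target sums were 5215 to 6221 CPM, against 8169 to 12227 CPM in the other females. Their glucocorticoid receptor target sums were 903 to 1237 CPM, against 1917 to 2891 CPM. Leaving them out raises the female levels of both lists, so the added calls are not separate evidence of a sex difference. For diet, 0 of the 58 genes of these 4 lists tested in males and 0 of 61 tested in females passed adjustment by edgeR, and 2 and 1 had an unadjusted p under 0.05. For the interaction, 0 of 57 passed, also unadjusted. Since the sexes were also collected at different times after injection, sex and time cannot be told apart in these genes either.

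**Figure D5:**
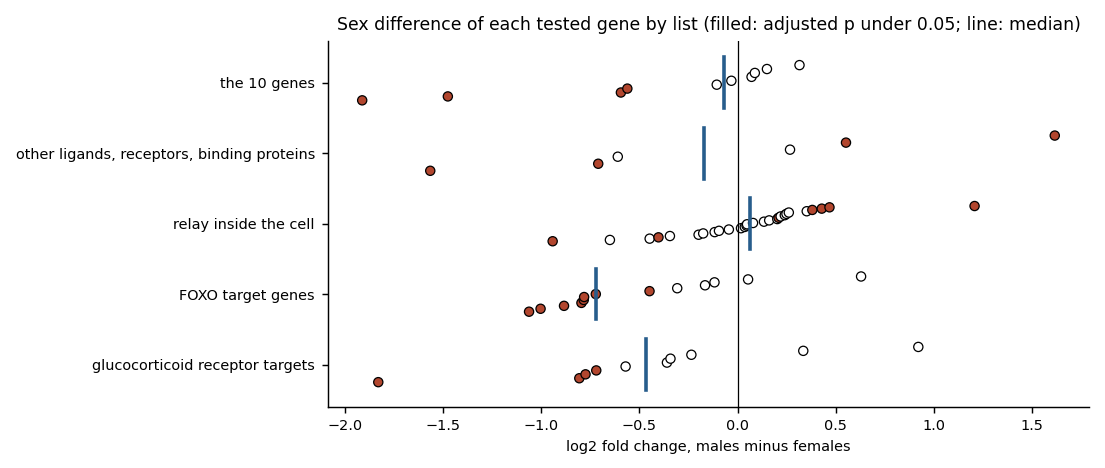
Log2 fold change of males minus females for every tested gene of 5 lists, with filled points for an adjusted p under 0.05 and a vertical line at each list's median. The FOXO targets lie mostly left of 0, with a median of -0.72, whereas the relay genes spread on both sides of 0.

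The genes whose levels moved most like a member were looked up for the 3 most variable members, as Pearson's r of log2(CPM + 1) over 18 libraries after group means were removed, among 12665 genes. Each library is 1 mouse, and r is given as a description. For *Igfbp1* these were *Pnpla7* (0.89), *Fbxo32* (0.86), *Arrdc3* (0.86), *Nr1d1* (0.86), and *Tmprss2* (0.86), and r was between 0.84 and 0.96 over the 15 libraries that do not stand apart. For *Irs2* they were *Itgb3* (0.92), *Lpin1* (0.92), *Arhgap26* (0.92), *Klf9* (0.92), and *Pik3r5* (0.92), with r between 0.78 and 0.84 over the 15, and for *Igf1* they were *Ushbp1* (0.94), *Dvl1* (0.88), *Mmp11* (0.86), *Cyth4* (0.85), and *Gm53* (0.85). Over the 15 libraries r with *Igf1* was 0.84, 0.71, 0.56, 0.55, and 0.62 in the same order. Among the members, *Igf1r* and *Insr* moved together most closely, with r of 0.88 over 18 and 0.82 over 15 libraries. The pair *Igf1r* and *Irs2* had r of 0.79 over 18 and 0.34 over 15.

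Reads of the non-directional libraries cannot be assigned to a strand. Exons of *Igf1r*, *Insr*, *Irs1*, *Irs2*, *Igfbp3*, and *Igfbp7* overlap those of a gene on the opposite strand, such as *Polr2b* at *Igfbp7*. Reads over such shared stretches were counted as ambiguous and left out, so the levels of these genes may miss reads. Exons of *Igf1*, *Igfbp1*, *Igfbp4*, and *Igfbp5* overlap no exon of another gene.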

How the data were processed

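Poly(A)-selected kidney RNA of 18 mice was sequenced without strand. After quality and adapter trimming, the authors ran STAR on GRCm39 (GENCODE vM36) and deposited raw read counts per gene, of which the unstranded column was used. Reads not assigned to a gene, 28.6% to 36.1% per library, were left out. The depth of 14050486 to 23562411 counts limits genes with few counts, and errors are the spread between mice. Gene names and positions came from GENCODE vM39, which holds 78168 of 78239 listed genes.

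A gene entered a comparison with 10 or more counts in all of its libraries and was tested with edgeR 4.0.16 (quasi-likelihood, TMM, Benjamini-Hochberg; R 4.3.3), being called at an adjusted p under 0.05. The study used DESeq2, run here as an alternative (1.42.0), as was limma-voom 3.58.1. The SE is the log2 fold change over the square root of F, and 95% intervals are normal, which makes them narrower than the test implies. For each member, log2(CPM + 1) was compared by an exact permutation test, two-sided, within diets for sex. RPKM used merged exon length. Libraries were clustered by average linkage on 1 minus Pearson's r. The test was checked on simulated data.

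Members, gene lists, and tests were chosen with earlier results of these data known. All 10 members are named; of each list, genes called for diet or the interaction, and the 4 with the smallest adjusted p by sex; for likeness, 5 genes for each of the 3 most variable members. Values of likeness and lists without the 3 libraries that stand apart were added after seeing the data. LP and NP males with the same replicate number had correlations of -0.30 to 0.33 (median -0.15) after group means were removed. NP males and NP females had -0.28 to 0.48. In females, each of the 3 LP and NP pairs sets a library that stands apart against another that does not. Their median of -0.44 therefore cannot decide whether numbers are pairs. Numbers were not used as pairs in the main fits, and a replicate block was run as an alternative.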

Additional observations from a re-analysis of the deposited data

Results flagged for a closer look

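*Igfbp4* in LP female 2 was at 727 CPM, while the other LP females were between 1089 and 1221 CPM. The gap to the nearest mouse was 0.734 of the range of the group, above Dixon's 95% limit of 0.71 for 5 samples. It was the only such value in the 30 groups of 5 mice examined, and chance alone gives about 1 in 20 groups. LP female 2 is also a library that stands apart, and the part of this was not tested.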

How the results depend on the processing

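In the diet comparisons and the interaction, 0 of the 10 genes were called under every alternative run. Of 850 alternative values of the 40 member differences, 82 changed sign, none of them called in either fit. Among the values reported, these signs turned. For diet in females, *Irs2* was -0.54 with the replicate block, and *Igfbp5* was 0.32 with the replicate block, 0.11 with limma-voom, and -0.41 to 0.67 with 1 library left out. By sex, without the 3 libraries that stand apart, *Igf1r* was -0.030, *Igfbp3* -0.062, and *Igfbp5* 0.042. *Igfbp3* by sex was -0.052 to 0.30 with 1 library left out. *Igfbp5* by sex was 0.019 with no filter, 0.23 with limma-voom, 0.067 with the replicate block, 0.016 in NP mice only, and -0.19 to 0.35 with 1 library left out. The replicate block changed no call of the 10 genes. By sex, 4 genes were called in the main fit, 3 to 4 with any 1 library left out (3 without NP female 1), and 1 (*Igfbp7*) in LP mice only.

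Counts over all genes moved more. For diet in males, 5 became 9 with no filter, 19 with DESeq2, 2 with the replicate block, 1 with all 4 groups in 1 model, and 2 to 6 with 1 library left out. In females, 0 became 3 with no filter, 9 with DESeq2, 1 without the 3 libraries, 2 with 4 groups in 1 model, and 0 to 2 with 1 library left out (2 without NP female 2). For the interaction, 2 became 5 with DESeq2, 7 with limma-voom, 0 with the replicate block, 0 without the 3 libraries, and 0 to 4 with 1 left out. By sex, 4900 became 2370 at 1.5-fold, 1954 in NP mice only, 2505 in LP mice only, and 4440 to 5314 with 1 left out. The cause was not tested. Of 80 group levels under other scaling, 2 moved by over 1 SD.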
